A study of Mus musculus with 6 samples.

Results

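The mitochondrial solute carriers of the Slc25 family were examined in the prefrontal cortex (PFC) of mice exposed to repeated social defeat (RSD). The members were every gene of the mRNA table whose symbol begins with Slc25a and a number, together with Mtch1 and Mtch2, which belong to the same protein family. This rule found 40 of the 12559 genes of the table, with 120 of its 32870 mRNA transcripts. RefSeq lists 49 such genes on the GRCm38 mouse assembly, and the other 9, among them Slc25a13 and Slc25a31, were not analysed here. A further 20 of the 25974 transcripts listed as lncRNAs lay in the assembled loci of members, 2 of them in the locus of Mtch1.

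The RSD group was 3 male C57BL/6 mice of 6 to 8 weeks, which had shared their home cage with an aggressive CD-1 intruder during 2 h in each of 6 nights. Controls were 3 mice of the same strain, sex and age that stayed in a separate cage and room, with 3 mice to a cage, so that effects of RSD, cage and room cannot be told apart. All mice had passed through an elevated plus maze just before the tissue was taken, and only RSD mice with anxiety-like behavior were used. The PFC was cut as a block, so the values are of mixed cells, and fewer cells of a type cannot be told apart from less RNA per cell.

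Carriers of this family sit in the inner mitochondrial membrane and exchange the substrates of energy metabolism between matrix and cytosol. They bring ADP and phosphate in and ATP out, move glutamate, aspartate and malate for the redox shuttle that neurons depend on, and import cofactors such as coenzyme A and NAD. A few members reside elsewhere, Slc25a17 in peroxisomes and Mtch1, Mtch2 and Slc25a46 in the outer mitochondrial membrane, where Mtch2 inserts other proteins.

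Levels are given as FPKM, fragments normalised to transcript length and to the mapped fragments of the library, and the level of a gene is the sum over its mRNA transcripts. The summed level of the 40 members was 694, 476 and 509 FPKM in control replicates 1 to 3 and 572, 571 and 557 FPKM in RSD replicates 1 to 3. The RSD mice thus lay inside the range of the controls, at 567 ± 8.75 FPKM (SD, n = 3) against 560 ± 118 FPKM (SD, n = 3). Control replicate 1 stood above the other 5 mice in this sum, and it also had the highest sum over all mRNA transcripts, 168805 FPKM against 135141 to 158966 FPKM in the others. It was the highest mouse for 16 of the 40 members and for 33.6% of all genes tested. As a share of all mRNA, the family held 0.411%, 0.352% and 0.363% in the controls and 0.360%, 0.361% and 0.373% in the RSD mice.

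The levels spanned a wide range. Slc25a4, Slc25a3 and Slc25a5 held 42.4% of the summed level, and the 10 highest members held 71.5%. Over the 6 mice, 14 members had a mean of 10 FPKM or more, 24 lay between 1 and 10 FPKM and 2, Slc25a24 and Slc25a47, were below 1 FPKM. No member was listed at 0 in any mouse.

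**Figure D1:**
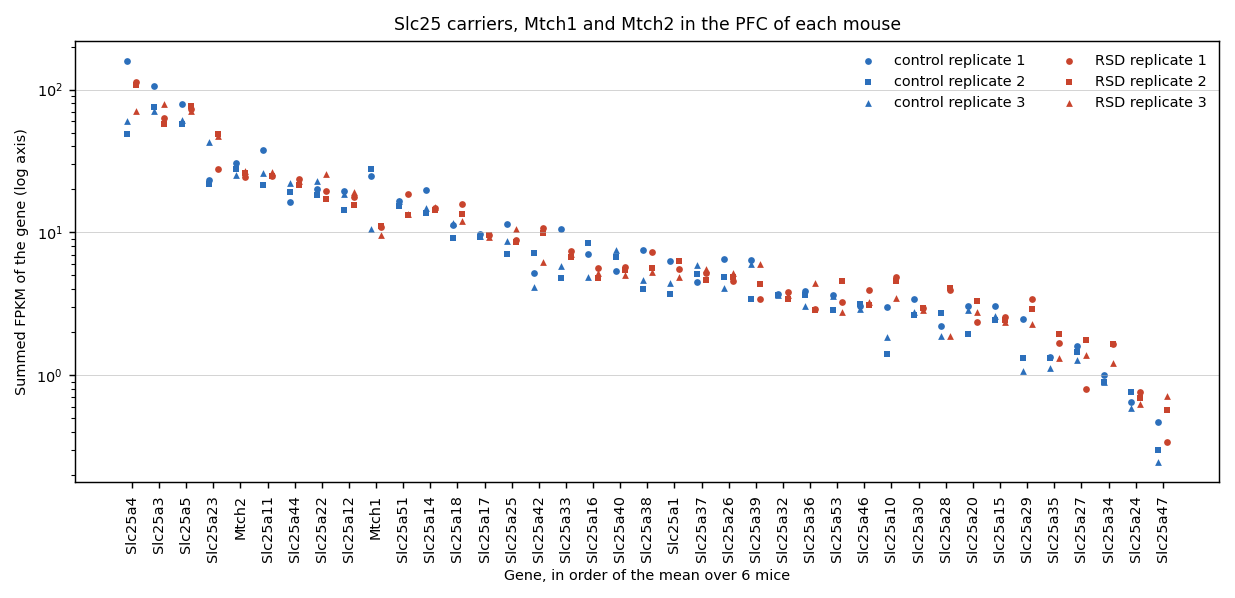
Summed FPKM of the genes in each mouse, on a log axis, with the genes in order of their mean over the 6 mice. Blue symbols are the 3 control mice and red symbols the 3 RSD mice. The highest values belong to Slc25a4, Slc25a3 and Slc25a5, and in most genes the blue and red symbols overlap.

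Of the 40 members, 39 reached 0.5 FPKM in at least 3 mice and were tested with limma on log2(FPKM + 0.1) in a fit over all 12277 genes that passed. Slc25a47 did not pass, with 0.473, 0.299 and 0.246 FPKM in the controls and 0.339, 0.570 and 0.716 FPKM in the RSD mice. No member reached an adjusted p under 0.05 in limma, where the background was 0.0733% of all genes, and the smallest adjusted p of a member in limma was 0.532. At an unadjusted p of at most 0.05 there were 3 members, Slc25a10, Slc25a29 and Slc25a34, all higher in RSD mice. This was 7.69% of the 39, against a background of 8.94% of all genes in either direction, 6.21% higher and 2.74% lower. The threshold of the study, a log2 fold change of 1 or more up or down with an unadjusted p not above 0.05, was met by Slc25a10 alone, higher in RSD mice, where the background was 2.42%, made up of 1.85% higher and 0.570% lower.

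The log2 fold changes of the 39 ranged from -0.88 for Mtch1 to 1.07 for Slc25a10. Their median was 0.04, against 0.03 over all genes, and 22 of them were above 0, against a background of 54.5%. The median size was 0.18, against 0.22 over all genes, and 28 of the 39 were under 0.3 in size. In 3 members, Slc25a10, Slc25a18 and Slc25a34, all RSD mice exceeded all control mice, against a background of 9.39%, and in none did all RSD mice lie below, against a background of 6.66%. Either pattern was seen in 16.1% of all genes.

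**Figure D2:**
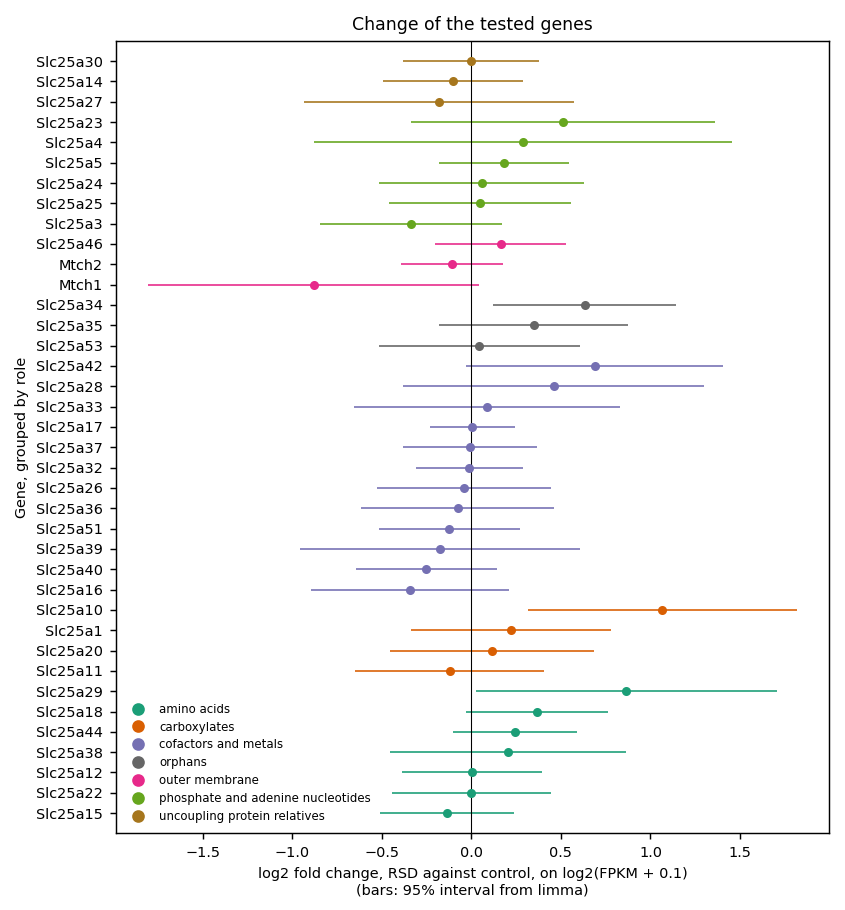
Log2 fold change of RSD against control mice for the tested genes, grouped by role, with positive values higher in RSD. Points are the estimates and bars the 95% intervals from limma. The intervals of Slc25a10, Slc25a29 and Slc25a34 lie above 0, that of Mtch1 reaches from -1.81 to 0.04, and most others are centred near 0.

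The exchange of adenine nucleotides and phosphate was carried by the most abundant members. Slc25a4, the ADP/ATP carrier ANT1 of heart, muscle and brain, has its assembled locus on chromosome 8 (46196537 to 46211284) and had 159, 49.2 and 60.6 FPKM in the controls and 113, 108 and 70.5 FPKM in the RSD mice. Control replicate 1 was the highest of the 6 mice and the other 2 controls the lowest, so the groups overlapped and the direction rested on single mice. The log2 fold change was 0.29 ± 0.47 (SE), with a 95% interval of -0.88 to 1.45 and an adjusted p of 0.853 in limma. Without control replicate 1 it was 0.80 with an unadjusted p of 0.025 and an adjusted p of 0.191 in limma, and without control replicate 2 it turned to -0.05.

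Slc25a5, the ADP/ATP carrier ANT2, had 79.3, 57.0 and 61.3 FPKM in the controls and 73.3, 77.4 and 71.4 FPKM in the RSD mice. The 3 RSD mice lay close together, at 74.0 ± 3.11 FPKM (SD, n = 3), inside the range of the controls, with a log2 fold change of 0.18 (95% interval -0.18 to 0.55). The ADP/ATP carriers resemble each other in sequence, and Slc25a5 has a pseudogene in RefSeq, so reads may have been shared between copies.

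Slc25a3, the phosphate carrier that supplies ATP synthase, had 107, 75.3 and 71.4 FPKM in the controls and 62.9, 57.2 and 78.9 FPKM in the RSD mice. Its log2 fold change was -0.34 (95% interval -0.85 to 0.17), opposite in sign to those of Slc25a4 and Slc25a5, and the groups overlapped through RSD replicate 3. The levels of Slc25a4, Slc25a3 and Slc25a5, at means of 93.5, 75.4 and 70.0 FPKM over the 6 mice, had SDs of 41.2, 17.3 and 8.93 FPKM, so that neighbours in this order differed by less than the SD of the higher one.

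The calcium-regulated ATP-Mg/phosphate carriers, which set the size of the adenine nucleotide pool, differed widely in level. Slc25a23 had 23.4, 21.8 and 42.7 FPKM in the controls and 27.6, 48.8 and 47.0 FPKM in the RSD mice. Control replicate 3 lay with RSD replicates 2 and 3, and RSD replicate 1 with the other controls, and the log2 fold change was 0.51 (95% interval -0.34 to 1.36). Slc25a25 had a mean of 9.20 FPKM over the 6 mice and Slc25a24 one of 0.680 FPKM, with log2 fold changes of 0.05 and 0.06. None of the 6 tested members of this group reached an unadjusted p of 0.05.

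The amino acid carriers serve glutamate metabolism and the malate-aspartate shuttle. Slc25a12, the aspartate/glutamate carrier aralar, had 19.5, 14.4 and 18.5 FPKM in the controls and 17.6, 15.6 and 19.1 FPKM in the RSD mice. Slc25a22, the glutamate carrier GC1, had 20.3, 18.4 and 23.0 FPKM in the controls and 19.4, 17.2 and 25.6 FPKM in the RSD mice. Both had log2 fold changes within 0.01 of 0, with 95% intervals of -0.39 to 0.39 and -0.45 to 0.44. Slc25a44, a carrier of branched-chain amino acids, had 16.3, 19.3 and 22.3 FPKM in the controls and 23.8, 21.6 and 22.8 FPKM in the RSD mice, with overlapping groups and a log2 fold change of 0.24.

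Slc25a18, the glutamate carrier GC2, which is enriched in astrocytes, had 11.3, 9.08 and 11.7 FPKM in the controls and 15.9, 13.4 and 12.1 FPKM in the RSD mice. The groups did not overlap, at 10.7 ± 1.41 and 13.8 ± 1.95 FPKM (SD, n = 3 each). RSD replicate 3 lay within 1 SD of either mean, and control replicate 3 was close below it. On the log2 scale the change was 0.36 ± 0.16 (SE), with an adjusted p of 0.569 in limma. Beside it, the summed level of 6 astrocyte markers was 265 to 276 FPKM in the controls and 256 to 301 FPKM in the RSD mice, and 0 of the 6 reached an unadjusted p of 0.05.

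Slc25a29, a carrier of basic amino acids such as arginine and lysine, had 2.46, 1.32 and 1.06 FPKM in the controls and 3.44, 2.91 and 2.30 FPKM in the RSD mice. Only control replicate 1 reached into the range of the RSD mice. The log2 fold change was 0.86 ± 0.34 (SE), with an unadjusted p of 0.045 and an adjusted p of 0.553 in limma. It stayed at an unadjusted p of at most 0.05 without control replicate 1, at a log2 fold change of 1.20, and at none of the other 5 omissions of 1 mouse. The remaining tested carriers of the group, Slc25a38, which moves glycine for heme synthesis, and Slc25a15, the ornithine carrier, had log2 fold changes of 0.21 and -0.14.

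The highest log2 fold change among the 39 members was that of Slc25a10, the dicarboxylate carrier, which exchanges malate and succinate for phosphate. The gene lies on chromosome 11 (120491840 to 120499187) and had 2.999, 1.41 and 1.85 FPKM in the controls against 4.91, 4.55 and 3.48 FPKM in the RSD mice. All RSD mice exceeded all control mice, and the group means were 2.08 ± 0.822 and 4.32 ± 0.743 FPKM (SD, n = 3 each). On the log2 scale the change was 1.07 ± 0.30 (SE, 95% interval 0.32 to 1.82), with an unadjusted p of 0.013 and an adjusted p of 0.532 in limma. It stayed at an unadjusted p of at most 0.05 when any 1 mouse was left out, between 0.83 without control replicate 2 and 1.35 without control replicate 1, but fell short of a log2 fold change of 1 without control replicate 2 or RSD replicate 1. No mouse reached 5 FPKM, far below the levels of the ADP/ATP carriers. The separation held for the gene sum but not for its main transcript, ENSMUST00000026899, which held 70.2% of that sum. In this transcript control replicate 1 had 2.59 FPKM and RSD replicate 3 had 2.31 FPKM, so the groups overlapped.

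The other carboxylate carriers had values nearer to 0. Slc25a11, the oxoglutarate/malate carrier of the malate-aspartate shuttle, had 37.5, 21.5 and 26.0 FPKM in the controls and 24.8, 24.8 and 26.5 FPKM in the RSD mice. Control replicate 1 alone stood out, and the log2 fold change was -0.12 (95% interval -0.65 to 0.40). Slc25a1, the citrate carrier, and Slc25a20, the carnitine/acylcarnitine carrier of fatty acid oxidation, had log2 fold changes of 0.22 and 0.11, with overlapping groups.

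The carriers of cofactors, nucleotides and metals formed the largest group, with 13 tested members, 5 of them above 0, and a median log2 fold change of -0.01. None reached an unadjusted p of 0.05. The highest value was that of Slc25a42, the coenzyme A carrier, at 0.69, and the lowest that of Slc25a16, at -0.34. Slc25a17, the peroxisomal member, and Slc25a32, the FAD and folate carrier, were the steadiest of the family: Slc25a17 had 9.24 to 9.82 FPKM over the 6 mice and Slc25a32 had 3.43 to 3.84 FPKM, with log2 fold changes of 0.0050 and -0.01.

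The relatives of the uncoupling proteins, Slc25a14, Slc25a27 and Slc25a30, had log2 fold changes of -0.10, -0.18 and -0.0029. Of the members whose substrate is not assigned here, Slc25a34 had 1.01, 0.891 and 0.896 FPKM in the controls and 1.66, 1.65 and 1.22 FPKM in the RSD mice. The groups did not overlap and the control mice lay close together, but all values were below 2 FPKM. The log2 fold change was 0.63 ± 0.21 (SE), with an unadjusted p of 0.024 and an adjusted p of 0.535 in limma. It passed an unadjusted p of 0.05 in 2 of the 6 omissions of 1 mouse, those of control replicate 1 and RSD replicate 3.

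Mtch1, an outer membrane member of the family, lies on the minus strand of chromosome 17 (29332072 to 29347904) and had the lowest log2 fold change. Its 6 mRNA transcripts summed to 25.0, 27.7 and 10.6 FPKM in the controls and to 10.8, 11.1 and 9.65 FPKM in the RSD mice. Control replicates 1 and 2 were the highest, while control replicate 3 lay among the RSD mice, so the groups overlapped. On the log2 scale the change was -0.88 ± 0.38 (SE, 95% interval -1.81 to 0.04), with an unadjusted p of 0.058 and an adjusted p of 0.562 in limma. Without control replicate 3 it was -1.32 with an unadjusted p of 0.00023 and an adjusted p of 0.154 in limma. Without control replicate 1 or 2 it was -0.70 and -0.63, both with an unadjusted p of 0.16, and without each RSD mouse in turn it lay between -0.92 and -0.82 with an unadjusted p of 0.10 to 0.13. The unadjusted p was 0.035 with median scaling and 0.041 with quantile normalization.

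Most of the signal of this locus was listed outside the mRNAs. The assembly placed 2 transcripts listed as lncRNAs, MERGE.19055.3 (29332114 to 29347390) and MERGE.19055.4 (29332114 to 29347377), on the same strand and over nearly the whole span of the gene. Their start sites lie 514 and 527 bases downstream of the annotated start of the mRNAs ENSMUST00000118366 and ENSMUST00000095427. RefSeq gives Mtch1 a start near each of these places, but not at the same bases. The windows around both, 250 bases before to 50 bases after each RefSeq start, are shown. The reason is that the 2 full-length mRNAs and the 2 lncRNAs of the locus begin in different windows. The other 4 mRNAs are listed with starts further downstream, outside both windows. Both windows are from GRCm38.p6, on the minus strand, 5′ to 3′. In the window chr17:29347883-29348182 the capitals mark the 22 bases from the start of the annotated mRNAs onward, and in the window chr17:29347278-29347577 they mark the 14 bases from the start of MERGE.19055.3 to that of MERGE.19055.4.
Mtch1 annotated start: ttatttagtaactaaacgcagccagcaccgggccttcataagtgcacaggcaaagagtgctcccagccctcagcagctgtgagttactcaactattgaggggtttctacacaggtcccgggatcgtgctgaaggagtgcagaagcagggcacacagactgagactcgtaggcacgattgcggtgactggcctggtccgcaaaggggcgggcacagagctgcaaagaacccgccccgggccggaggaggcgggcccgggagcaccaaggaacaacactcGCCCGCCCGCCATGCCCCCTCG
Mtch1 assembled starts: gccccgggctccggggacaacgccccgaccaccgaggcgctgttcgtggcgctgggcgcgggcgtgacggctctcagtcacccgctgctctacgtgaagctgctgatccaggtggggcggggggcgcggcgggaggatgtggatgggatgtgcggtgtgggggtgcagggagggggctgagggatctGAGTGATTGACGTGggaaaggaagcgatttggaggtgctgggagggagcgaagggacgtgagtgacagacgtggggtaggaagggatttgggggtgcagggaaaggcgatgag

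MERGE.19055.3 had 4.59, 10.5 and 25.9 FPKM in the controls and 34.4, 36.5 and 34.4 FPKM in the RSD mice. The RSD mice all exceeded the controls, and control replicate 3, the control with the lowest mRNA level, was the nearest to them. The log2 fold change was 1.69 ± 0.58 (SE), with an unadjusted p of 0.026 and an adjusted p of 0.927 in limma over the 23640 lncRNA transcripts tested. The threshold of the study was met by this transcript alone among the 17 tested lncRNAs of member loci, where the background was 2.43% of all lncRNAs, or 1.07% for those higher in RSD mice. It was no longer met without control replicate 2 or any of the 3 RSD mice, where the log2 fold change stayed between 1.66 and 1.70 and the unadjusted p lay between 0.056 and 0.062.

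MERGE.19055.4 had 59.0, 19.0 and 29.5 FPKM in the controls and 43.3, 44.6 and 40.6 FPKM in the RSD mice. Control replicate 1 was above and the other 2 controls below all RSD mice, and the log2 fold change was 0.41 ± 0.40 (SE). Without control replicate 1 it was 0.85 with an unadjusted p of 0.0090 and an adjusted p of 0.305 in limma, and without control replicate 2 it was 0.04.

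Summed over the mRNAs and lncRNAs, the Mtch1 locus had 88.6, 57.3 and 65.9 FPKM in the controls and 88.5, 92.3 and 84.6 FPKM in the RSD mice. The direction was thus opposite to that of the mRNAs alone, with a log2 fold change of 0.35 ± 0.17 (SE), an unadjusted p of 0.092 and an adjusted p of 0.553 in limma. The lncRNAs held 71.7%, 51.6% and 83.9% of the locus in the controls and 87.8%, 87.9% and 88.6% in the RSD mice. The 3 RSD mice lay close together and above all controls in this share. All 8 transcripts lie on 1 strand. The shorter mRNAs each overlap the transcripts that span the gene, but not all of them overlap each other. The division of the reads among overlapping transcripts was made by the software of the authors, and its part in the result was not tested.

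**Figure D3:**
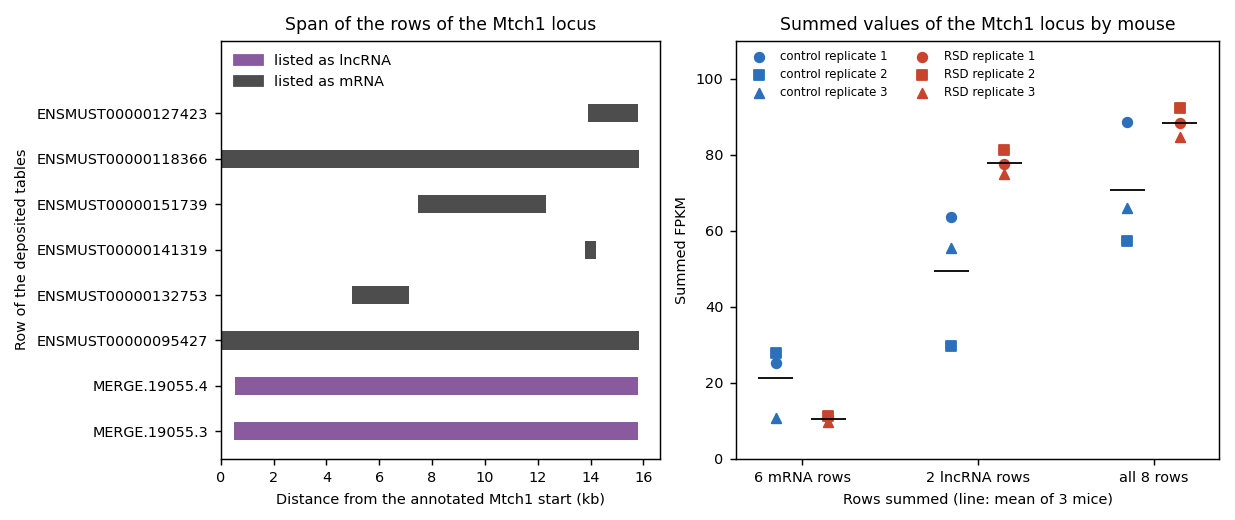
Left, the span of the 8 transcripts of the Mtch1 locus in kilobases from the annotated start, with mRNAs in grey and lncRNAs in purple. Right, the summed FPKM of the 6 mRNAs, the 2 lncRNAs and all 8 in each mouse, with lines at the means of 3 mice. The RSD mice sit at 9.65 to 11.1 FPKM for the mRNAs, 75.0 to 81.1 FPKM for the lncRNAs and 84.6 to 92.3 FPKM for the locus.

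Within the mRNAs of Mtch1, no single transcript dominated. ENSMUST00000127423, a short transcript at the 3′ end, held 31.5% of the sum and had 6.78, 11.0 and 2.23 FPKM in the controls and 3.44, 3.73 and 2.73 FPKM in the RSD mice. ENSMUST00000118366, which spans the whole gene, had 12.1, 6.23 and 2.87 FPKM in the controls and 2.60, 1.82 and 0.698 FPKM in the RSD mice, below every control, with a log2 fold change of -1.93 and an adjusted p of 0.710 in limma. ENSMUST00000151739, an internal transcript, had 3.10, 5.31 and 3.49 FPKM in the controls and 2.37, 1.72 and 2.65 FPKM in the RSD mice, also below every control, with a log2 fold change of -0.78. ENSMUST00000132753, another internal transcript, was higher in RSD mice, with 0.631, 0.808 and 0.552 FPKM in the controls and 1.13, 1.98 and 1.43 FPKM in the RSD mice and a log2 fold change of 1.06. Its share of the Mtch1 sum was 3.14% in the controls and 14.3% in the RSD mice, and this share had the smallest adjusted p of the 96 shares tested in the family, 0.403 in limma. None of the 96 had an adjusted p under 0.05, where the background was 0.143%, and 5 had an unadjusted p of at most 0.05, where it was 5.78%.

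Mtch2 had 30.8, 27.8 and 25.1 FPKM in the controls and 24.4, 26.1 and 26.9 FPKM in the RSD mice, with a log2 fold change of -0.11 (95% interval -0.39 to 0.18). The gene sum was steadier than its main transcript, ENSMUST00000136872, which had 20.7, 4.57 and 13.1 FPKM in the controls and 14.4, 16.6 and 15.1 FPKM in the RSD mice. In control replicate 2, where that transcript was lowest, ENSMUST00000150232, over nearly the same span, had 10.3 FPKM, against at most 0.283 FPKM in the other 5 mice. The 2 other transcripts with over 10% of the sum, ENSMUST00000146392 and ENSMUST00000144696, had log2 fold changes of -0.02 and -0.28. ENSMUST00000135026, at the 3′ part of the gene, had 2.17, 1.48 and 1.46 FPKM in the controls and 1.14, 0.463 and 0.648 FPKM in the RSD mice, with a log2 fold change of -1.14 and an adjusted p of 0.705 in limma.

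Slc25a46, the third outer membrane member, acts in mitochondrial dynamics and had 2.91 to 3.15 FPKM in the controls and 3.10 to 3.93 FPKM in the RSD mice.

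Of the 120 mRNA transcripts of members, 111 were tested among 29471. None reached an adjusted p under 0.05 in limma, where the background was 0.163%, and 10 had an unadjusted p of at most 0.05, where it was 6.78%. The threshold of the study was met by 7, or 6.31% of the 111, where the background was 4.09%. Of these 7, which belonged to 6 genes with Mtch1 the only one to have more than 1, 3 were higher and 4 lower in RSD mice, against backgrounds of 2.57% and 1.51%. In 8 transcripts all RSD mice exceeded all controls and in 10 they all lay below, where the backgrounds were 7.22% and 6.17%. Without RSD replicate 2 none of the 111 met the threshold of the study.

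The main transcript held 77.8% to 97.4% of the sum in 5 of the 6 highest members and 52.4% in Mtch2. ENSMUST00000034049 of Slc25a4 held 93.8% of the sum, with 157, 47.2 and 58.6 FPKM in the controls and 101, 93.5 and 68.2 FPKM in the RSD mice. The minor transcript ENSMUST00000155986 of Slc25a4 had 1.79, 2.03 and 1.94 FPKM in the controls and 11.8, 14.9 and 2.26 FPKM in the RSD mice. RSD replicates 1 and 2 were far above all controls and RSD replicate 3 just above them, and the log2 fold change was 1.90 ± 0.71 (SE), with an adjusted p of 0.729 in limma. It held 2.14% of the Slc25a4 sum in the controls and 9.94% in the RSD mice.

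ENSMUST00000164505 of Slc25a3 held 77.8% of the sum, with 73.9, 58.7 and 62.3 FPKM in the controls and 52.5, 42.7 and 61.8 FPKM in the RSD mice. ENSMUST00000016463 of Slc25a5, ENSMUST00000014750 of Slc25a11 and ENSMUST00000040280 of Slc25a23 held 97.4%, 91.5% and 88.4% of their sums, with log2 fold changes of 0.20, -0.13 and 0.55. None of these main transcripts reached an unadjusted p of 0.05.

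Single transcripts differed between mice in genes whose sums did so less. ENSMUST00000019226 of Slc25a22 had 2.04, 1.93 and 15.01 FPKM in the controls and 1.20, 0.273 and 0.0662 FPKM in the RSD mice, with a log2 fold change of -3.22 and an adjusted p of 0.706 in limma. All RSD mice were below all controls, and control replicate 3 was far above the rest. Without control replicate 3 the log2 fold change was -2.27 with an unadjusted p of 0.058. Another transcript of Slc25a22, ENSMUST00000106007, ranged from 0.895 to 10.5 FPKM.

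ENSMUST00000134714 of Slc25a51, the NAD carrier, had 2.37, 3.72 and 3.605 FPKM in the controls and 2.68, 0 and 0 FPKM in the RSD mice. The groups overlapped through RSD replicate 1, and the value rested on the listed zeros. ENSMUST00000139333 of Slc25a42 had 0.685, 1.23 and 0.0044 FPKM in the controls and 2.74, 2.86 and 1.87 FPKM in the RSD mice, with a log2 fold change of 2.41 and an adjusted p of 0.729 in limma. Without control replicate 3, which was near 0, the log2 fold change was 1.32. Its span is the same as that of ENSMUST00000110127, which had a log2 fold change of 0.28.

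**Figure D4:**
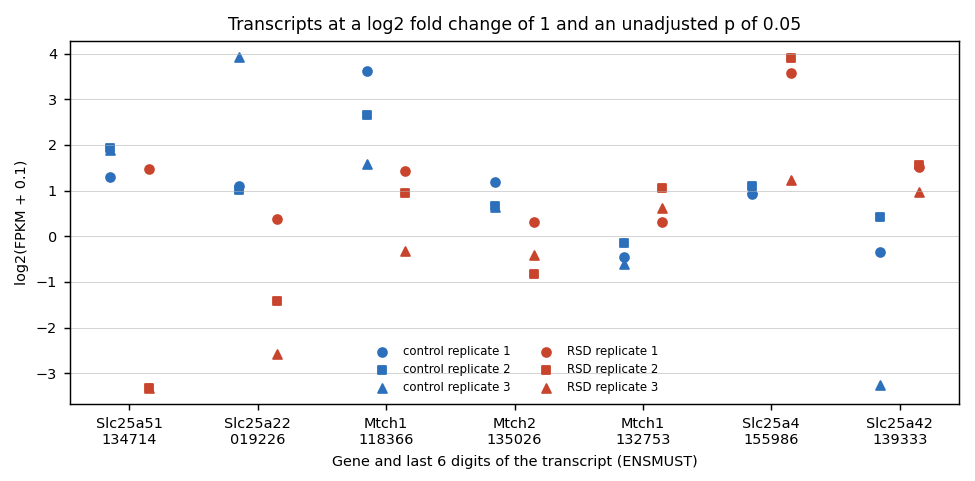
The 7 transcripts of members that met the threshold of the study, as log2(FPKM + 0.1) in each mouse. Blue symbols are controls and red symbols RSD mice, and the labels give the gene and the last digits of the transcript. In 6 of the 7 the colors do not overlap, and in ENSMUST00000134714 of Slc25a51 one RSD mouse lies among the controls.

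No gene sum of the family was under 0.1 FPKM in any mouse, but single transcripts were. Among the 140 mRNA and lncRNA transcripts of the family, 13 were listed at 0 in at least 1 mouse and 17 were under 0.1 FPKM in some mice and over 1 FPKM in another. Outside the family whole gene sums were listed near 0 as well: Slc17a7, the vesicular glutamate transporter of cortical neurons, had 311 FPKM in control replicate 1 and at most 0.0055 FPKM in the other 2 controls, against 311 to 331 FPKM in the RSD mice. Whether such values reflect the RNA or the division of reads among transcripts was not tested.

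Besides Mtch1, 12 members had lncRNAs in their locus, and in 5 of the 13 loci these held more than 50% of the summed level: Mtch1, Slc25a27, Slc25a28, Slc25a39 and Slc25a46. Of the 20 lncRNAs 17 were tested. None had an adjusted p under 0.05 in limma, where the background was 0.102%, and 3 had an unadjusted p of at most 0.05, where the background was 5.28%. Beside MERGE.19055.3 these were NONMMUT006801.2 of the Slc25a3 locus, higher in RSD mice by 0.79 on the log2 scale, and NONMMUT072336.2 of the Slc25a14 locus, which was lower. They were named after their values were seen.

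In the Slc25a23 locus the mRNAs and the lncRNA MERGE.19736.2 varied in opposite directions. The lncRNA had 26.3, 14.6 and 6.19 FPKM in the controls and 16.3, 5.59 and 6.54 FPKM in the RSD mice, lowest in the 3 mice where the mRNAs were highest. The locus as a whole had 49.6, 36.4 and 48.9 FPKM in the controls and 44.0, 54.4 and 53.6 FPKM in the RSD mice, and its log2 fold change was 0.18, against 0.51 for the mRNAs. In the Slc25a39 locus, named for a carrier of glutathione, the lncRNA NONMMUT012141.2 had 9.78 to 19.0 FPKM in the controls and 14.1 to 18.7 FPKM in the RSD mice, above the mRNA sum of 3.42 to 6.36 FPKM in every mouse. The mRNAs of Slc25a39 had a log2 fold change of -0.18 and the whole locus one of 0.49, with overlapping groups in both. In the Slc25a46 locus the lncRNA NONMMUT031800.2, inside the gene, had 21.7 to 24.6 FPKM over the 6 mice and a log2 fold change of -0.02. These 3 loci were also named after their values were seen.

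RefSeq promoter windows of GRCm38.p6 were at hand for 31 of the 40 members, 41 windows in all. The GC box GGGCGG was found on either strand in 37 of the 41, or 90.2%, against 62.1% of the 12275 windows of genes in the mRNA table and 35.7% of all 32851 windows. The TATA box TATAAA was found in 1 of the 41, that of Slc25a18, against 7.06% and 13.6%. The cyclic AMP response element TGACGTCA was found in those of Slc25a25 and Slc25a36 and the ETS motif ACTTCCGG in those of Mtch2 and Slc25a20, each in 4.88% of the member windows, against 2.98% and 7.42% of the windows of genes in the table and 1.79% and 3.89% of all windows. Each was searched on both strands, and no motif contains another.

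As a comparison, 55 other genes of mitochondrial transport were taken: translocases of the outer (TOM) and inner (TIM) membrane, channels, the pyruvate carrier, sideroflexins, calcium handling and shuttle enzymes. Of these 50 were in the table and 49 were tested. Their median log2 fold change was 0.02, beside 0.04 for the Slc25 members and 0.03 for all genes. None had an adjusted p under 0.05 in limma, and 3 had an unadjusted p of at most 0.05, 2 higher and 1 lower in RSD mice, beside the background of 8.94%. Timm23, the channel of the inner membrane translocase, had 5.37, 5.41 and 5.09 FPKM in the controls and 8.36, 6.93 and 6.65 FPKM in the RSD mice. Tomm5, a small subunit of the outer membrane translocase, had 5.29, 3.11 and 9.26 FPKM in the controls and 11.2, 10.2 and 10.5 FPKM in the RSD mice. Tomm70a, a receptor for carrier precursors on the outer membrane, had 4.87, 14.2 and 19.9 FPKM in the controls and 3.92, 1.69 and 2.05 FPKM in the RSD mice. The groups did not overlap in any of the 3, and the log2 fold changes were 0.45, 0.97 and -2.17. Across the 49 tested genes of the list, all RSD mice exceeded all control mice in 6 and lay below them in 5. The backgrounds were 9.39% and 6.66% of all genes. Ignoring sign, log2 fold changes of the list had a median of 0.33, beside 0.18 for the Slc25 members and 0.22 for all genes. Without control replicate 1 the list had 15 genes at an unadjusted p of at most 0.05 in limma. In that setting the count of Slc25 members also rose, from 3 to 7, and the median over all genes moved to 0.0895. The share of all genes at that p in the same setting is not given here, so the 15 have no background.

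The libraries had similar depths, at 0.857 to 0.967 of that of control replicate 1, as read from the steps between low values. Control replicate 1 correlated less with the other 2 controls (0.835 and 0.859 on the log2 scale, across genes) than with the RSD mice (0.883 to 0.891). Markers of cortical neurons and glia were present, and those of choroid plexus were at most 3.75 FPKM in sum. Blood cell markers summed to 64.65 to 173 FPKM in the controls and 69.9 to 197 FPKM in the RSD mice. Those of striatal neurons summed to 18.2 to 39.0 and 30.5 to 34.6 FPKM. Of the 3 blood, 6 interneuron and 3 oligodendrocyte precursor markers, 1 of each list had an unadjusted p below 0.05 in limma. These were Hba-a1, Slc32a1 and Cspg4, all higher in RSD mice. Hbb-bs and Alas2 of blood had log2 fold changes of 0.08 and -0.13, and Pdgfra and Olig2 of precursors 0.03 and 0.10. Among interneuron markers Pvalb was at -0.14, Gad1 and Vip at 0.11, Sst at 0.89 and Gad2 at 1.06. Of the 6 microglia markers 1, Aif1, was lower at an unadjusted p below 0.05 in limma. Tmem119 and C1qa of the same list had log2 fold changes of 0.37 and 0.38, and Cx3cr1, P2ry12 and Csf1r 0.01, -0.02 and -0.03. The 6 oligodendrocyte markers summed to 133 to 218 FPKM in the controls and 231 to 281 FPKM in the RSD mice, and 3 of the 6 (Mbp, Cnp and Mobp) had an unadjusted p below 0.05 and higher values in RSD mice. Mag and Mog, of the same list, had log2 fold changes of -0.90 and -0.10. The 5 endothelial markers summed to 17.1 to 32.3 FPKM in the controls and 15.9 to 18.9 FPKM in the RSD mice, and 2 of them (Flt1 and Kdr) had an unadjusted p below 0.05 and lower values in RSD mice. The part of these differences in the values of the carriers was not tested.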

How the data were processed

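Directional libraries depleted of ribosomal RNA were made from the PFC of 3 control and 3 RSD mice. The authors assembled transcripts and computed FPKM with the Cufflinks suite, and the deposited tables give 1 FPKM value per transcript and mouse. Cufflinks divides reads among overlapping isoforms, which affects single transcripts more than sums. The labels name Bowtie 0.12.2 and mm9, whereas 99.9% of 31440 matched mRNA transcripts overlap GRCm38 genes of their name. For other tools the version is not given in the sources used here. The tables also hold the authors' fold changes and p-values, which were not used. No read counts were used, so depth is known only as a ratio.

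One member is in the counts, sums and medians but is not reported by itself. Genes are FPKM sums over mRNA transcripts of a symbol. RSD was compared with control by limma 3.58.1 in R 4.3.3 on log2(FPKM + 0.1), with a trend over the mean, for features of at least 0.5 FPKM in at least 3 of 6 mice, with two-sided p-values adjusted by Benjamini-Hochberg over all features of a table. A fold change on this scale understates that of low genes. The shares of isoforms were fitted likewise. The fit was tested on simulated data in which all features of a table had the same normal spread. In the real data the spread differs between features, so the simulation cannot show how the fit performs on them. Whether same-group mice shared a cage is not stated, so p-values measure the spread between these mice only.

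Named in full were the 10 highest members, those at an unadjusted p of at most 0.05 or without overlap at a log2 fold change of at least 0.3, Mtch1, Mtch2, their main isoforms and those of the 6 highest, member transcripts at the threshold of the study, the Mtch1 lncRNAs and list genes at an unadjusted p of at most 0.05. The members, lists and rules were chosen with earlier results of these data known. Alternatives were other pseudocounts, filters and scalings, no trend, a replicate block, locus sums and each mouse left out in turn.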

Additional observations from a re-analysis of the deposited data

How the results depend on the processing

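The absence of members past an adjusted p of 0.05 held for genes, transcripts and shares under every alternative run. The count of genes at an unadjusted p of at most 0.05, 3, became 5 with quantile normalization and 1 to 7 with 1 mouse left out (7 when control replicate 1 was omitted, 1 when RSD replicate 1 or RSD replicate 2 was). The count at the threshold of the study, 1, became 0 with a pseudocount of 1, with median scaling and with quantile normalization, and 0 to 2 with 1 mouse left out. The 7 transcripts at that threshold became 0 to 8 with 1 mouse left out (0 without RSD replicate 2), and the lncRNA of Mtch1 at it, 1, became 0 or 1. The 3 genes of the other transport list became 7 with median scaling, 8 with quantile normalization, 6 without the trend, 5 with the replicate block and 2 to 15 with 1 mouse left out. None of these alternative counts has the share over all genes in the same setting beside it. The sign turned for Mtch1 with locus sums (0.348) and for Slc25a4 without control replicate 2 (-0.0451, within a range of -0.0451 to 0.80 over the omissions). The cause was not tested. Fold changes were followed for the members and mRNA transcripts at an unadjusted p of at most 0.05, Mtch1, Slc25a4 and the Mtch1 lncRNAs. Of these, 176 alternative values kept direction and side of an unadjusted p of 0.05, 58 lost and 6 gained it. Most were chosen for passing that p in the main fit, so more of them could lose it than gain it.

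Deviations of same-numbered mice correlated at 0.13, -0.09 and 0.10, inside the range of differently numbered mice, -0.204 to 0.133. With 3 mice per group this cannot decide whether the replicate numbers pair the mice, and the labels state no pairing. With the replicate block 0 genes passed an adjusted p of 0.05, 4 had an unadjusted p of at most 0.05, 1 gene and 5 transcripts met the threshold of the study. At an unadjusted p of at most 0.05 the block lost Slc25a34 and gained Mtch1 and Slc25a42. In this balanced design the block cannot change a fold change.

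The median over all genes moved from 0.03 to -0.05 with median scaling and to -0.06 with quantile normalization. Without counts, values near 0 FPKM could not be given a counting error.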
